A study of Canis lupus familiaris with 2 samples.

Results

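The genes described here encode the insulin-like growth factor (IGF) binding proteins and the receptors and receptor substrates that read IGF and insulin signals. They were chosen by gene symbol, and all 10 symbols (IGFBP2, IGFBP3, IGFBP4, IGFBP5, IGFBP6, IGFBP7, IGF1R, INSR, IRS1 and IRS2) were found among the 23510 features of the deposited files. Madin–Darby canine kidney (MDCK) cells, an established dog kidney line that grows as a columnar epithelial sheet, were grown on membrane inserts under a column of medium, up to day 3. The control group was 1 culture in 2-cm-high medium, labelled 2 cmH2O (the 2-cm culture), and the pressure-loaded group was 1 culture in 50-cm-high medium, labelled 50 cmH2O (the 50-cm culture). The labels name no other treatment, and both cultures had the same serum-containing medium (EMEM with fetal calf serum), so that IGFs and binding proteins of the serum were outside the measurement. The higher column also means a larger volume of medium over the cells. In the paper, MDCK cells at 50 cm grew more slowly and were wider and flatter. Medium volume and cell density thus differed along with pressure, and their part in any difference below was not tested. With 1 culture per group there are no replicates, no value below has a replicate error, and no difference could be tested.

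IGF1 and IGF2 are growth and survival factors that act through the receptor tyrosine kinase IGF1R, and insulin acts through the related kinase INSR. The activated receptors phosphorylate the docking proteins IRS1 and IRS2, which recruit phosphatidylinositol 3-kinase (PI3K) and so turn on the kinase AKT. The IGF binding proteins are secreted, hold IGFs in the extracellular space, and either limit or prolong their access to the receptor. In the kidney, tubule cells carry IGF and insulin receptors and secrete several of the binding proteins. The comparison bears on the study's question of how static pressure slows the growth of columnar epithelial cells, here for one growth factor axis.

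The measurement was RNA sequencing of polyadenylated RNA, given as FPKM, that is, fragment numbers corrected for exon length and for library size, which allows levels to be compared between genes per length. FPKM values summed to 600496 at 2 cm and 614100 at 50 cm, and the read total of each library is unknown. Kidney epithelial identity was seen in both cultures. Of 7 epithelial markers measured, 6 were above 1 FPKM in both, CDH1 among them at 211 and 229 FPKM, and CDH16 had 1.96 FPKM at 2 cm and 0.676 FPKM at 50 cm. All 6 fibroblast markers summed to 0.374 and 0.401 FPKM, all 4 endothelial markers to 0.474 and 0.277 FPKM, and the 3 leukocyte markers measured were listed at 0 in both cultures.

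In brief, 6 of the 10 genes were above 1 FPKM at both medium heights, and none of these 6 differed more than 2-fold between the medium heights. IGFBP7 was by far the most abundant, IGFBP6 had a ratio of 1.38 (50-cm over 2-cm), the largest in the values as deposited but second to IRS2 under quantile normalization, and IGF1R was nearly level (ratio 0.996). The other 4 genes, IGFBP2, IGFBP3, IGFBP5 and INSR, were listed at 0 FPKM in both cultures. Among all 11057 features that were likewise above 1 FPKM, 1.67% differed more than 2-fold, 0.389% being higher and 1.28% lower at 50 cm. At such shares a count of 0 among 6 genes sets the group apart in neither direction. Since RNA came from whole cultures, fewer cells expressing a gene and less of its RNA per cell cannot be told apart.

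**Figure D1:**
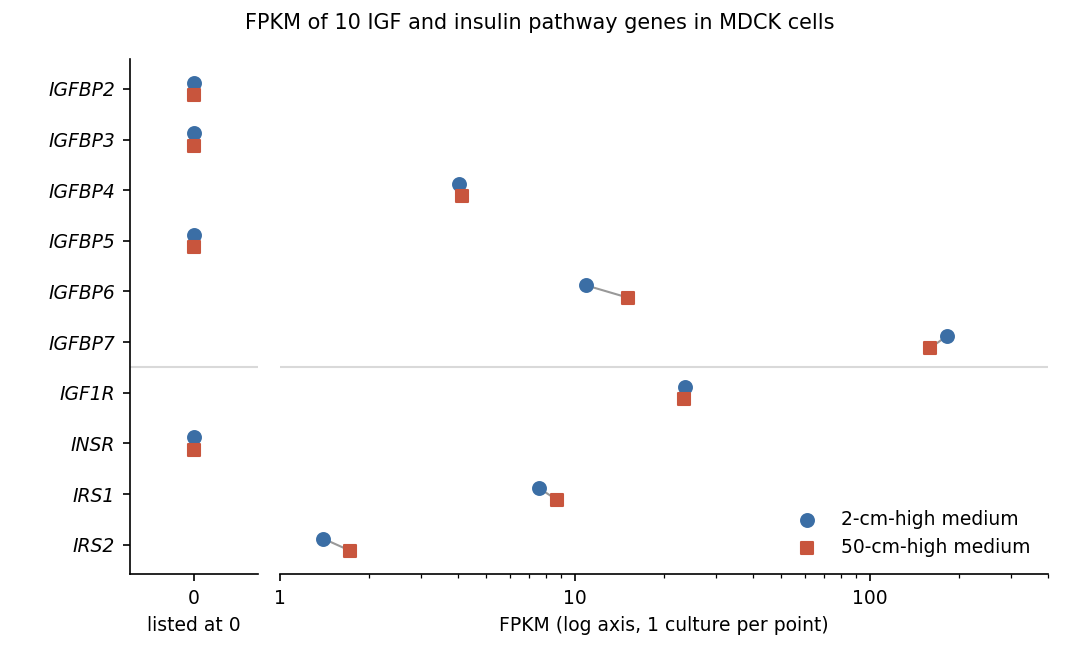
FPKM of the 10 genes on a log axis (right panel), with genes listed at 0 in a separate panel on the left. Each point is 1 culture, circles for 2-cm-high and squares for 50-cm-high medium. IGFBP7 lies far to the right of the other genes in both cultures, IGFBP6 shows the widest gap on the log axis in these values as deposited, and IGFBP2, IGFBP3, IGFBP5 and INSR sit at 0 in both.

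The order of the levels was the same in both cultures. IGFBP7 stood first, followed by IGF1R, IGFBP6, IRS1, IGFBP4 and IRS2, and then by the 4 genes listed at 0. IGFBP7 was 7.71 times as high as IGF1R, the next gene, at 2 cm and 6.80 times at 50 cm. Of all features, 2.00% were higher than IGFBP7 in the 2-cm culture, whereas 17.7% were higher than IGF1R and 46.8% were higher than IRS2. Without replicates it cannot be said which neighbours in this order differ beyond the spread between cultures.

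Among the binding proteins, IGFBP7 encodes a secreted, matrix-associated relative that binds IGFs weakly and is made by many epithelial and endothelial cells. Its FPKM value was 182 at 2 cm and 159.7 at 50 cm, so that the pressure-loaded culture was the lower one (ratio 0.877, log2 ratio -0.19). The ratio ranked 8527 among the 11057 features ordered from highest to lowest, so 22.9% of features had a ratio as low or lower.

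IGFBP6, which binds IGF2 in preference to IGF1, had an FPKM value of 10.9 at 2 cm and 15.1 at 50 cm. The 50-cm culture was the higher one (ratio 1.38, log2 ratio 0.47). In the values as deposited this was the largest ratio of the 6 genes, whereas under quantile normalization IRS2, with a log2 ratio of 0.54, came ahead of IGFBP6 with 0.47. It ranked 478, meaning that 4.32% of features had a ratio as high or higher. For comparison, features were divided by mean level into 10 bins of equal size, and the middle 90% of log2 ratios in the bin holding IGFBP6 ran from -0.44 to 0.42. IGFBP6 lay just above this range. The other 5 genes lay within the range of their own bin, which describes a spread across genes and is not a replicate error.

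IGFBP4, a binding protein that holds IGFs until it is cut by the protease PAPP-A, was low and almost the same in both cultures. Its FPKM value was 4.045 at 2 cm and 4.14 at 50 cm (ratio 1.02, log2 ratio 0.03). Which culture was the higher depended on scaling, since with both cultures scaled to the same FPKM sum the log2 ratio was -0.00054.

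**Figure D2:**
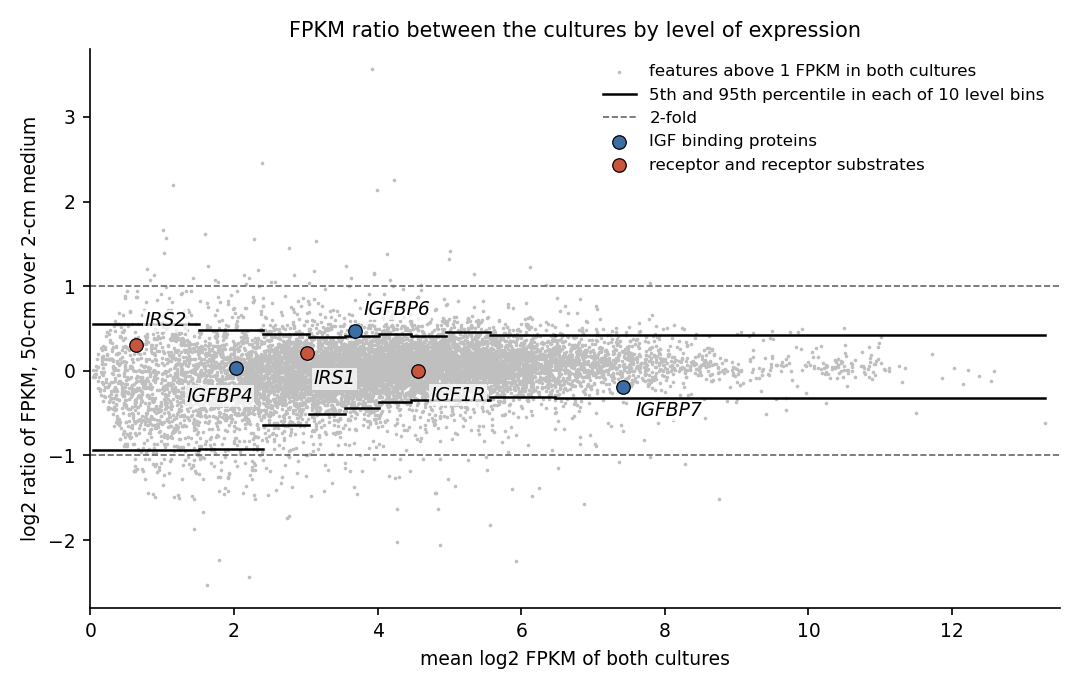
Log2 ratio of FPKM (50-cm over 2-cm medium) against the mean log2 FPKM of both cultures. Grey points are the 11057 features above 1 FPKM in both cultures, black bars the 5th and 95th percentile within each of 10 bins by level, and dashed lines 2-fold. All 6 genes lie between the 2-fold lines, and IGFBP6, at 0.47, lies just above the upper bar of its bin.

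The make-up of the binding protein RNA was compared within each culture, as shares and as ratios between genes, which are free of any scaling between the cultures. The summed FPKM of the IGFBP2 to IGFBP7 genes was 197 at 2 cm and 178.9 at 50 cm. The ratio of these sums, 0.908, does depend on that scaling. IGFBP7 made up 92.4% of this sum at 2 cm and 89.3% at 50 cm. The share of IGFBP6 was 5.54% and 8.42%, and that of IGFBP4 was 2.05% and 2.31%. Relative to IGFBP7, the level of IGFBP6 was 0.06 at 2 cm and 0.0944 at 50 cm, which is 1.57 times as high. Among IGFBP4, IGFBP6 and IGFBP7, the RNA was thus mostly IGFBP7 in both cultures, with a larger part from IGFBP6 at 50 cm. IGFBP2, IGFBP3 and IGFBP5, listed at 0, entered the sum as 0. Since a listed 0 does not show that RNA was absent, the shares hold only among the genes with values.

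**Figure D3:**
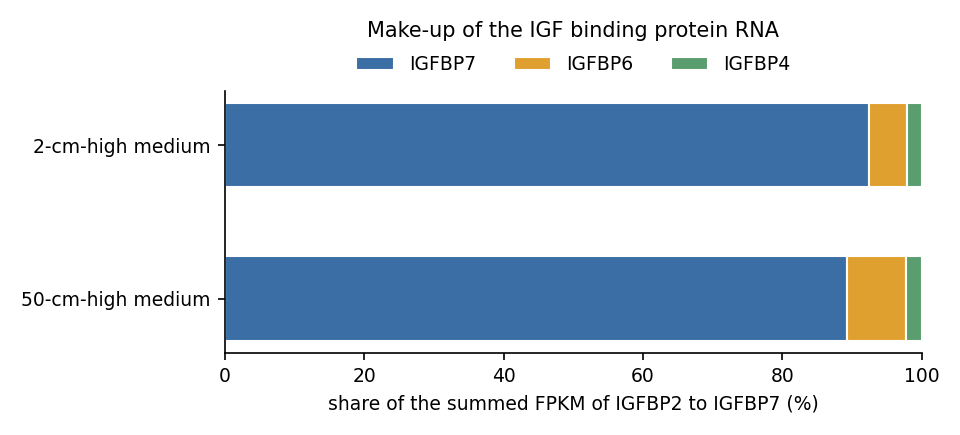
Share of each binding protein gene in the summed FPKM of IGFBP2 to IGFBP7, with 1 bar per culture. IGFBP7 takes 92.4% at 2 cm and 89.3% at 50 cm, and IGFBP6 takes 5.54% and 8.42%. Genes listed at 0 have no part of the bars.

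IGFBP2, IGFBP3 and IGFBP5 encode binding proteins that many epithelial cells secrete, IGFBP3 being the main carrier of IGFs in blood. Each was listed at exactly 0 FPKM in both cultures. Zeros at both heights were common, being found for 7740 of the 23510 features (32.9%). They included ATP5O, a subunit gene of the mitochondrial ATP synthase that respiring cells use, so a listed 0 is not evidence that a gene's RNA was missing. In the gene order of the RefSeq dog assembly UU_Cfam_GSD_1.0, IGFBP2 and IGFBP5 are direct neighbours, and IGFBP3 lies next to IGFBP1, which was also listed at 0 in both cultures. On either side of the first pair, RPL37A, beside IGFBP2, had 1380.1 and 1563 FPKM, and TNS1, beside IGFBP5, had 20.5 and 15.4 FPKM. ADCY1, beside IGFBP1, had 0.0194 and 0.0783 FPKM.

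Of the receptors, IGF1R had an FPKM value of 23.6 at 2 cm and 23.5 at 50 cm (ratio 0.996, log2 ratio -0.01). It ranked 5926 of 11057. In the values as deposited it was the gene closest to a ratio of 1 among the 6, but IGFBP4 was closer when the ratios were recentred on the median (log2 ratio 0.0172, against -0.0206 for IGF1R) and with an equal FPKM sum (-0.00054 against -0.04). INSR, the insulin receptor gene, was listed at 0 in both cultures. ARHGEF18, its neighbour in the RefSeq gene order, was at 9.05 FPKM in each. IGF1R and INSR are related in sequence, how the authors' mapping treated reads that match both is not stated, and the caution on listed zeros holds for INSR too. INSRR, the third member of this receptor family, was barely read, at 0.0653 FPKM at 2 cm and 0.0181 FPKM at 50 cm.

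The receptor substrates IRS1 and IRS2 were both higher in the 50-cm culture. IRS1 had 7.54 and 8.72 FPKM (ratio 1.16, log2 ratio 0.21), and 19.97% of features had a ratio as high or higher. IRS2, whose transcription is known to respond to FOXO factors and to fasting in liver, had 1.40 and 1.73 FPKM (ratio 1.24, log2 ratio 0.31), with 11.7% of features as high or higher. IRS1 was the more abundant in both cultures, at 5.38 times the level of IRS2 at 2 cm and 5.03 times at 50 cm. The sum of both substrates relative to IGF1R was 0.379 at 2 cm and 0.445 at 50 cm, or 1.17 times as high.

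For the 2 genes with the lowest values above 0, the deposited decimals gave a hint of the read numbers. The commonest ratio among the 574 features that were read at both heights but stayed below 0.1 FPKM was 1.0977, found for 186 of them within 0.002%, as equal numbers of reads in both libraries would give. Read against this value, the smallest whole numbers that give the IRS2 ratio within the rounding of the files were 152 reads in the 50-cm library and 135 in the 2-cm library. For IGFBP4 they were 122 and 131 reads. If these were the read numbers, the 95% interval of the ratio (exact Clopper-Pearson) would be 0.974 to 1.57 for IRS2 and 0.792 to 1.32 for IGFBP4, covering counting error only. The numbers may be multiples of these pairs, and the match may be a coincidence, so nothing is read from these intervals about a difference between the cultures. Pairs of numbers no larger than 152 were found for 62.8% of features at 1 to 2 FPKM, for 42.2% at 2 to 5 FPKM, and for 8.30% of features above 100 FPKM, whose reads should be far more numerous. No such reading was made for the other 4 genes above 1 FPKM.

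As groups, the 3 binding protein genes above 1 FPKM had a median log2 ratio of 0.03, and the receptor and receptor substrate genes above 1 FPKM, also 3, had a median of 0.21. The median over all 11057 features was 0.01. Of the 6 genes, 4 were higher and 2 lower at 50 cm (66.7% higher), beside 52.6% of all features. IGFBP4 is one of the 4, and changed side under the scaling named above.

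Among 65 other genes of the pathway in 7 lists, 49 were above 1 FPKM in both cultures. IGF2 was the only one of them that differed more than 2-fold, beside 1.67% of all features above 1 FPKM. A count of 1 among 49 is near that share and does not set these lists apart. Of the 65, 10 were listed at 0 in both (15.4%), beside 32.9% of all features. IGF2, the fetal-type growth factor that binds IGF1R, had 69.3 FPKM at 2 cm and 30.7 FPKM at 50 cm (ratio 0.442, log2 ratio -1.18). Its level relative to IGF1R was 2.94 at 2 cm and 1.30 at 50 cm. The summed binding protein RNA was 2.84 times the IGF2 level at 2 cm and 5.84 times at 50 cm. The ratio of binding protein to ligand RNA thus differed by 2.05-fold, with IGF2 lower by 1.18 and the binding protein sum lower by 0.14 on the log2 scale. That sum was mostly IGFBP7 (92.4% at 2 cm and 89.3% at 50 cm), which binds IGFs weakly. It also counts IGFBP2, IGFBP3 and IGFBP5 as 0, so it does not measure how much IGF could be bound. IGF1 and INS, the genes of the other ligands, were listed at 0 in both cultures. IGF2R, which takes up IGF2 for degradation in lysosomes and does not signal as a kinase, had 26.9 and 27.8 FPKM (ratio 1.03).

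Proteins that cut the binding proteins, or protect them from being cut, set how much IGF is freed. STC1, stanniocalcin 1, an inhibitor of PAPP-A, was the highest gene of its list by ratio, with 579.9 FPKM at 2 cm and 747 FPKM at 50 cm (ratio 1.29). CTSD, the lysosomal protease cathepsin D, was the lowest by ratio, with 837 and 667 FPKM (ratio 0.797). PAPPA and PAPPA2, the genes of the PAPP-A proteases, were listed at 0 in both cultures. The 5 genes of this list above 1 FPKM had a median log2 ratio of 0.10, with 3 higher and 2 lower.

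Of 8 adaptor genes above 1 FPKM, 6 were higher and 2 lower at 50 cm, with a median log2 ratio of 0.11. They ran from GAB1, a docking protein, at 22.1 and 16.8 FPKM (ratio 0.759), to SOS1, a RAS activator, at 28.6 and 38.6 FPKM (ratio 1.35). The 7 brakes on the receptors above 1 FPKM had a median of 0.19, with 4 higher and 3 lower. Among them PTPRF, a receptor phosphatase, had the lowest ratio, 0.797, from 51.5 and 41.1 FPKM, and TRIB3, a pseudokinase that binds AKT, the highest, 1.43, from 46.5 and 66.5 FPKM. GRB10 and GRB14, adaptors that block the receptor kinases, had ratios of 0.911 and 0.942.

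Downstream, all 15 PI3K and AKT genes were above 1 FPKM in both cultures, with 6 higher and 9 lower and a median log2 ratio of -0.04. The lowest was PIK3R1, a regulatory subunit of PI3K that binds phosphorylated IRS proteins, at 5.38 and 3.88 FPKM (ratio 0.722), and the highest was AKT1, at 122 and 136 FPKM (ratio 1.12). Each of the 15 lay within the middle 90% of its bin by level. Over all 7 lists, 43 of 49 genes did so, beside 9937 of 11057 features. The FOXO factors, which AKT holds out of the nucleus, and their known targets gave 2 higher and 7 lower among 9 genes above 1 FPKM, with a median of -0.11. This is 22.2% higher, beside 52.6% of all features. FOXO1, FOXO4 and SESN1 were in the lowest bin by level, where the middle 90% of log2 ratios reached further down than up, from -0.93 to 0.55. FOXO3, BCL6, CCNG2 and SESN3, the other lower genes, were in higher bins. The count takes the factors FOXO1, FOXO3 and FOXO4, all lower, together with their targets. SESN1, counted as lower, was nearly level (ratio 0.991). Of the 9 genes, 7 lay within the middle 90% of their bin. CCNG2, a cyclin of resting cells, was the lowest at 6.73 and 4.32 FPKM (ratio 0.642), and TXNIP, an inhibitor of glucose uptake, the highest at 17.4 and 23.8 FPKM (ratio 1.37). IGF2BP1, IGF2BP2 and IGF2BP3, which bind IGF2 messenger RNA, had ratios of 1.27, 0.968 and 0.856. The genes of these lists outside the middle 90% of their bin were IGF2, CTSD, GAB1, TRIB3, CCNG2 and TXNIP.

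**Figure D4:**
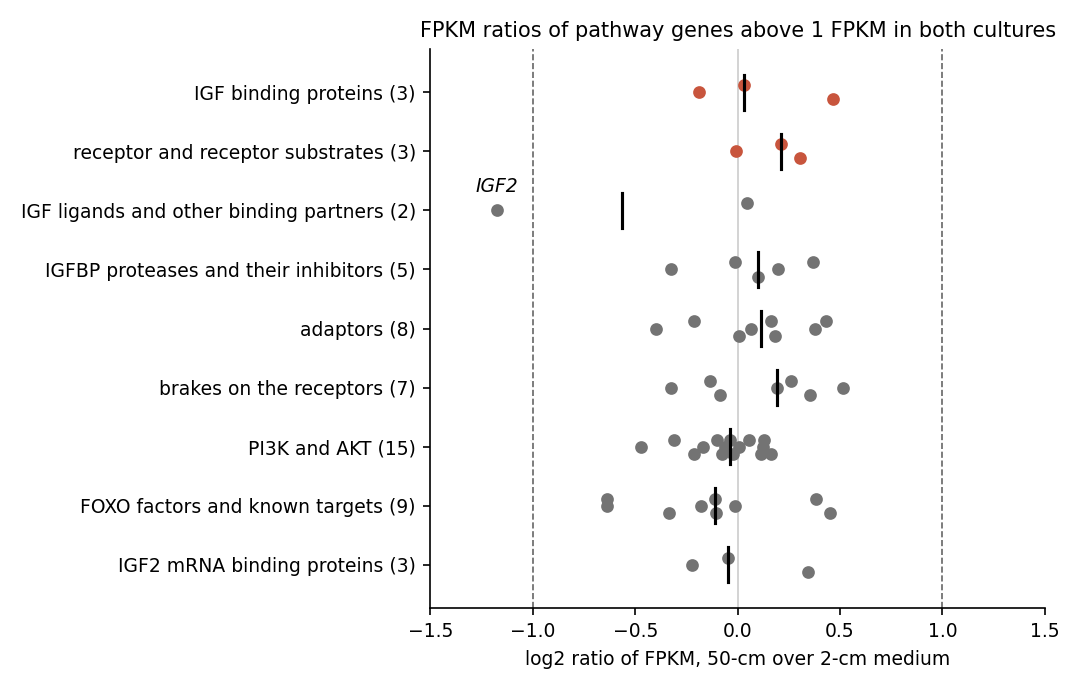
Log2 ratio of FPKM (50-cm over 2-cm medium) for each gene above 1 FPKM in both cultures, by list, with the number of genes in brackets. Points are genes, black ticks the median of a list, and dashed lines 2-fold. The 6 genes described here (upper rows, red) run from -0.19 to 0.47, and IGF2, at -1.18, is the point beyond the lower 2-fold line.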

How the data were processed

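The 2 deposited files hold FPKM values, made by the authors from stranded mRNA libraries read as 75-base single-end reads, with TopHat2 2.0.13, Bowtie2 2.2.3 and SAMtools 0.1.19 on CanFam3.1 and Cuffnorm 2.2.1. The annotation, and how Cuffnorm scaled the libraries, are not given in the sources used here. FPKM from Cuffnorm shares reads among isoforms, and a change in abundant genes shifts all others.

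Files were matched to groups through the labels, and ratios were computed as 50-cm over 2-cm FPKM without a pseudocount. Features above 1 FPKM in both cultures were compared, and a feature was counted above a ratio of 2 or below 0.5. No test between the cultures was run, because each group was 1 sample. The genes and lists were chosen with earlier results of these data known. All 10 genes are named, and of the other lists the genes past 2-fold and those with the highest and lowest ratio, with a few added for their role or their place beside a named gene. Gene order came from RefSeq, in which all 10 symbols matched, and its coordinates were not used because the assembly differs. Alternatives were 2 pseudocounts, 3 filters and 3 scalings. The scripts were tested on simulated data (Python 3.11.15, numpy 2.4.6, pandas 2.3.3, scipy 1.17.1, matplotlib 3.10.9).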

Additional observations from a re-analysis of the deposited data

How the results depend on the processing

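The pseudocounts were 0.1 and 1 FPKM, and a pseudocount can only move a ratio toward 1. The filters were a minimum above 0 FPKM in both cultures, above 1 FPKM in at least 1 culture or above 5 FPKM in both. A filter only chooses which features are kept, so the ratio of a kept gene could not change. The scalings were recentring on the median, quantile normalization and an equal FPKM sum. Recentring and an equal sum shifted all genes by the same small amount. Only quantile normalization could thus have moved single genes far outward. None of the genes described here that were above 1 FPKM passed 2-fold under any of the 8 alternatives. Over these the log2 ratio ran from 0.43 to 0.47 for IGFBP6, from -0.27 to -0.19 for IGFBP7, from -0.04 to -0.01 for IGF1R, from 0.18 to 0.26 for IRS1 and from 0.19 to 0.54 for IRS2, the last highest under quantile normalization, where it exceeded IGFBP6. IGFBP4 ran from -0.00054 to 0.16 and was below 0 with an equal FPKM sum. The medians ran from -0.00054 to 0.16 for the binding proteins and from 0.10 to 0.26 for the receptor and substrates. A minimum of 5 FPKM left out IGFBP4 and IRS2. IGF2 stayed beyond 2-fold, from -1.25 to -1.15. With any value above 0 accepted, 4 other pathway genes passed 2-fold instead of 1. The features past 2-fold over all genes ranged from 0.708% to 8.50%. With no replicates, a shift was called small when it was below 0.247, the spread of log2 ratios across features (median absolute deviation, scaled to an SD). No paired analysis was possible because each group holds 1 sample. Read totals are unknown, which limits every value here.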

Other observations

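Some further genes related to the IGF axis by name, domain or position were looked at after their values had been seen, and are given as values only. IGFL3, an IGF-like secreted protein gene, had 123 FPKM at 2 cm and 47.2 FPKM at 50 cm (ratio 0.383). IGFLR1, the gene of the IGF-like family receptor, had 5.43 and 2.27 FPKM (ratio 0.418). Both genes, of a family separate from the IGFs, were more than 2-fold lower in the pressure-loaded culture. Of all features above 1 FPKM, 1.28% were more than 2-fold lower. Ratios as low or lower were found for 0.353% (IGFL3) and 0.497% (IGFLR1) of features. Because these genes were picked with their values known, such shares do not set them apart. With a pseudocount of 1 FPKM, IGFLR1 came to -0.98 on the log2 scale and no longer passed 2-fold.

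Other proteins carry the IGFBP domain without being high-affinity IGF carriers. Of 9 such genes looked at, 3 were above 1 FPKM in both cultures, with 2 higher and 1 lower at 50 cm. Another 3 were listed at 0 in both. CYR61, a matrix-associated signalling protein, had 103 FPKM at 2 cm and 171 FPKM at 50 cm (ratio 1.66), a larger ratio than that of IGFBP6. CRIM1, a membrane protein, had 64.8 and 76.3 FPKM (ratio 1.18), and ESM1, a secreted proteoglycan, had 21.9 and 20.5 FPKM (ratio 0.935).

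In the RefSeq gene order most binding protein genes lie near a gene of the tensins, adaptors that link integrins to actin. TNS4, next to IGFBP4, had 13.1 FPKM at 2 cm and 26.4 FPKM at 50 cm. Its ratio was 2.01, or 1.01 on the log2 scale. Under 4 of the 8 alternatives it was below 2-fold. These were a pseudocount of 1 FPKM (0.96), recentring on the median (0.99), quantile normalization (0.99) and an equal FPKM sum (0.98). The filters could not change the ratio of TNS4, and a pseudocount of 0.1 FPKM left it at 1.002 on the log2 scale. IGFBP4 itself had a ratio of 1.02. TNS3, near IGFBP3, had a ratio of 1.07, and TENC1, an older symbol of the TNS2 gene near IGFBP6, had 0.855. TNS1, beside IGFBP5, had a ratio of 0.755. Of the 4 tensins with values, 2 were higher and 2 lower at 50 cm. Within the middle 90% of their bin lay 2 of them, with TNS4 above and TNS1 below.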
